A study of Mus musculus with 4 samples.

Results

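The subject is a group of 10 unstable messenger RNAs (mRNAs) of LIF, BMP and growth factor signalling, namely Id1, Id2, Id3, Socs3, Myc, Mycn, Jun, Junb, Egr1 and Ier2. They were taken by gene symbol from a deposited table of direct RNA nanopore reads, and are 10 of its 13831 symbols. The reads came from J1 mouse embryonic stem cells grown in serum with LIF, and were wild type (WT) or lacked Mov10, an RNA helicase, by knockout (KO), with 2 libraries per genotype called WT 1, WT 2, KO 1 and KO 2. No treatment was given to either genotype. How many clones lie behind the KO libraries is not given in the sources used here, nor whether the libraries of a genotype came from separate cultures, so p-values measure the spread between libraries, which may be technical.

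Direct RNA sequencing reads each native molecule from its tail end, so every read carries a poly(A) tail length in nucleotides (nt) and stands for 1 molecule. The 10 symbols had 891 reads of the 1903919 with a tail length above 0, of which WT 1 held 177, WT 2 126, KO 1 354 and KO 2 234. RefSeq places Id1 on chromosome 2, Id3 and Jun on 4, Junb and Ier2 on 8, Socs3 on 11, Id2 and Mycn on 12, Myc on 15 and Egr1 on 18. Reads per gene ran from 2 for Jun to 270 for Ier2, and this depth limits every value below.

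LIF and BMP are the signals that keep serum-grown mouse stem cells undifferentiated. LIF acts through the kinase JAK and the transcription factor STAT3, which switches on Socs3, and BMP acts through SMAD proteins, which switch on the Id genes. Serum growth factors act through the ERK kinases and rapidly induce the immediate early genes. The mRNAs of these genes are known for fast turnover, often through AU-rich elements that recruit the enzymes that shorten the poly(A) tail, so tail length and amount are both of interest for them.

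Promoters are shown for the members whose read number could be tested and which had an entry in the RefSeq promoter table of GRCm38.p6, because Socs3 and the Id genes are textbook targets of STAT3 and SMAD proteins. The table had an entry for 6 of the 10 genes. Each sequence is the 250 bases before the annotated start, 5′ to 3′ on the gene's strand, at chr11:117969367-117969616 (minus strand) for Socs3, chr4:136143572-136143821 (plus strand) for Id3 and chr12:12941837-12942086 (minus strand) for Mycn. Capitals mark matches to TTCNNNGAA, the core of a STAT site, or GGCGCC, a GC-rich SMAD motif; both read the same on either strand.
Socs3: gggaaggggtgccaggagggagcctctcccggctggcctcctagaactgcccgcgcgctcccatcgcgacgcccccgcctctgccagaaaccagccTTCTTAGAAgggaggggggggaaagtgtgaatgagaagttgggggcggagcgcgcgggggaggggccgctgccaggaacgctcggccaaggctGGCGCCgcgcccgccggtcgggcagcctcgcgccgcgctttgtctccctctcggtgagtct
Id3: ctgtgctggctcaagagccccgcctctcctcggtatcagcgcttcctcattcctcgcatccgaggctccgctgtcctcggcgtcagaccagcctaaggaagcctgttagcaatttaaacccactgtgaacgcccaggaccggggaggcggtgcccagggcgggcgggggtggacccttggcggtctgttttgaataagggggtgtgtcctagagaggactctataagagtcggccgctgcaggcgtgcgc
Mycn: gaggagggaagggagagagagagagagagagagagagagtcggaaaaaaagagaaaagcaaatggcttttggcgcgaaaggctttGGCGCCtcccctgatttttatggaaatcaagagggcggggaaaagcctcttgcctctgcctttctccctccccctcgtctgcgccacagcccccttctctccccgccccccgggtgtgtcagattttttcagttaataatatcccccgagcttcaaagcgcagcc

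The STAT core lay 154 to 146 bases before the Socs3 start and in no other member's window, and 7.02% of all 32851 windows of the table held it. GGCGCC lay 61 to 56 bases before the Socs3 start, 165 to 160 bases before the Mycn start, and also in the Id2 window; 9.59% of all windows held it. None of the 6 members' windows held TATAAA, TGACGTCA (the cyclic AMP response element) or CACGTG (the E-box bound by Myc), on either strand, which occurred in 12.4%, 1.55% and 6.02% of all windows. These matches describe letters only, and no binding was measured.

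The libraries held from 351133 reads (WT 2) to 683239 reads (KO 1), with median tails over all reads from 97.3 to 105.8 nt. Mov10 itself had 26 and 14 reads in WT 1 and WT 2 and 0 and 1 read in KO 1 and KO 2. Of 9 stem cell markers, all were detected, with summed levels of 9298 and 10361 scaled reads per 1000000 reads (RPM) in WT and 6826 and 7971 RPM in KO. Of 8 fibroblast or feeder markers 6, the collagens among them, were at 0 in every library, and the other 2, Thy1 and Fn1, summed to 257.1 and 147.3 RPM in WT 1 and WT 2 and 242.6 and 260.3 RPM in KO 1 and KO 2. Of 6 trophoblast markers 3 (Cdx2, Elf5 and Hand1) were at 0, and the rest summed to 45.4, 66.7, 47.1 and 30.9 RPM in the same order. The 7 primitive endoderm markers, of which Sox17, Pdgfra, Dab2 and Foxa2 were at 0, had 1 to 2 reads per library. Of 9 early differentiation markers 5 were detected, on 16 and 12 reads in WT 1 and WT 2 and 8 and 5 reads in KO 1 and KO 2. Their sums were 40.3 and 33.3 RPM in WT and 11.4 and 11.0 RPM in KO. Marker sums were thus lower in KO without overlap for the stem cell and early differentiation lists, the latter on few reads. Of all 4815 genes tested for read number, 20.5% lay lower in KO without overlap. The part of these markers in the values below was not tested. In bulk RNA, fewer cells of a type and less RNA per cell cannot be told apart.

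The first question was how abundant each mRNA was, and whether KO and WT differed. Read number is given as RPM after median-of-ratios scaling, and since a read is a molecule, genes are compared without dividing by length. In WT the order of the means was Ier2, Id3, Id1, Mycn, Socs3, Id2, Myc, Junb, Egr1 and Jun, and in KO it was Ier2, Id1, Socs3, Id3, Mycn, Egr1, Myc, Junb, Id2 and Jun. The WT means of Id3, Id1, Mycn and Socs3, from 47.9 to 72.1 RPM, lay within the spread of their libraries, as did those of Id2, Myc and Junb, from 11.9 to 15.3 RPM.

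**Figure D1:**
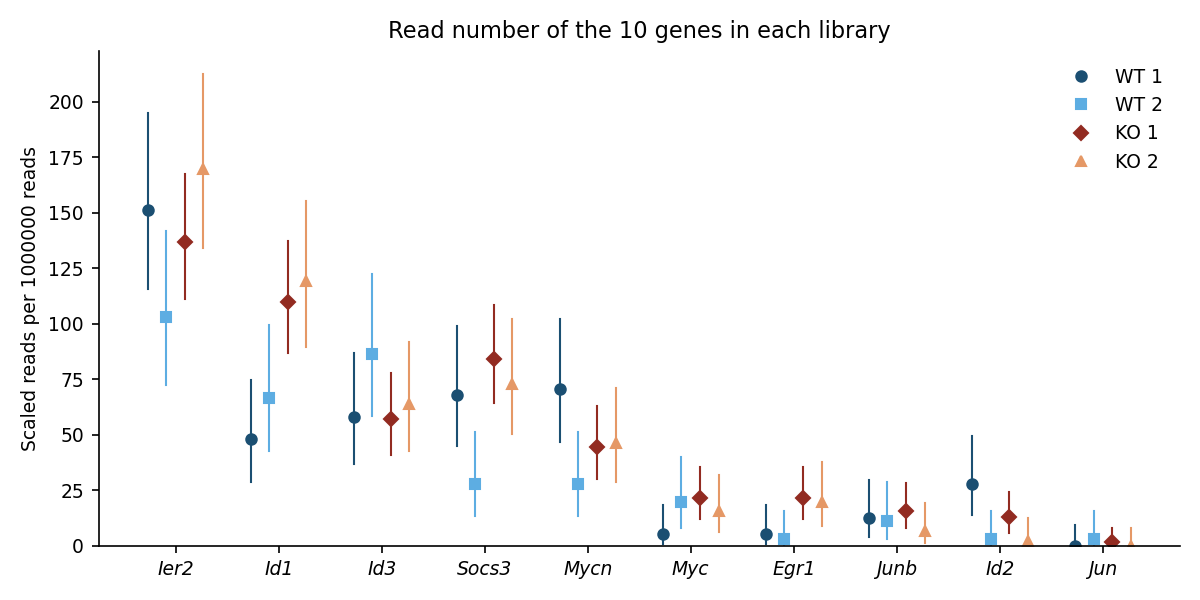
Scaled reads per 1000000 reads of the 10 genes; each point is 1 library and each line its exact Poisson 95% interval, which covers counting error only. Id1, Socs3 and Egr1 were the genes in which both KO points lay above both WT points. Of the 4815 genes tested for read number, which leave out Egr1, 20% lay so.

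Among the Id genes, whose short proteins bind E-box transcription factors of the basic helix-loop-helix class and block their attachment to DNA, Id1 (ENSMUSG00000042745.9) stood higher in KO. It had 47.9 RPM in WT 1 and 66.7 RPM in WT 2, on 19 and 24 reads, against 109.9 RPM in KO 1 and 119.1 RPM in KO 2, on 77 and 54 reads. Both KO libraries were above both WT libraries, and the gap between genotypes exceeded the gap within either. The means were 57.3 RPM ± 13.3 (SD, n = 2) and 114.5 RPM ± 6.55 (SD, n = 2). The log2 difference was 1.00 with a standard error of 0.34 and a 95% interval from 0.29 to 1.71, and the unadjusted p was 0.00844. It did not pass the threshold of 0.05 after adjustment over all 4815 genes tested (limma's voom, Benjamini-Hochberg adjusted p = 0.292; alternatives from 0.0405 to 0.999). The one alternative that passed was the fit without WT 2, which gave a log2 difference of 1.22 and called 451 of 5086 genes.

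Id3 (ENSMUSG00000007872.3) is a close relative of Id1. Its levels were 58.0 RPM in WT 1, 86.1 RPM in WT 2, 57.1 RPM in KO 1 and 64.0 RPM in KO 2. The genotypes overlapped, with WT 2 the highest library, and the log2 difference was -0.23 with a 95% interval from -0.97 to 0.50 (limma's voom, adjusted p = 0.867). Without WT 2 it was 0.04.

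Id2 was sparse, with 11 and 1 reads in WT 1 and WT 2 and 9 and 1 reads in KO 1 and KO 2. These were 27.7, 2.78, 12.8 and 2.21 RPM, so the libraries numbered 1 were the high ones in both genotypes and the genotypes overlapped. The gap within a genotype was thus larger than the gap between genotypes. A mean of at least 10 reads was needed for the test, and Id2 did not reach it.

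Socs3 (ENSMUSG00000053113.3) encodes an inhibitor of JAK and of the LIF receptor complex, and so a brake on the signal that induces it. Its levels were 68.1 RPM in WT 1 and 27.8 RPM in WT 2, on 27 and 10 reads, against 84.2 RPM in KO 1 and 72.8 RPM in KO 2, on 59 and 33 reads. The KO libraries were above both WT libraries, but KO 2 exceeded WT 1 by far less than WT 1 exceeded WT 2. The log2 difference was 0.81 with a standard error of 0.40 and a 95% interval from -0.04 to 1.65 (limma's voom, adjusted p = 0.507). Each WT library moved its size: the value was 0.20 without WT 2 and 1.44 without WT 1.

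Socs3 lies near the end of chromosome 11, and its neighbours had the same direction. Of the 20 tested genes nearest to it, 10 on each side, all 20 had more reads in KO, with log2 differences from 0.15 to 1.60 and a median of 0.88. The unbroken run of such genes around Socs3 held 49 genes and reached the last tested gene of the chromosome, and 17 of them had a smaller difference than Socs3. The run was ended by H3f3b, a histone gene named here after its value was seen, at -0.06. From there the stretch was extended to the next gene not above 0, which added 23 genes, from 0.18 to 1.66. Its edge was thus set by the sign of these same values, and the medians on either side depend on that choice. With that break included, the end of the chromosome held 73 tested genes with a median of 0.86. Among the 386 tested genes nearer the chromosome's start, 197 had more reads in KO, with a median of 0.02. Around the other tested members, in windows of 19 or 20 genes, 11 (Id1), 10 (Id3), 10 (Mycn) and 7 (Ier2) had more reads in KO, with medians from -0.15 to 0.14. The Socs3 value was thus close to those of its neighbours, and the part of the region in it was not tested. The order of genes is that of RefSeq on GRCm38.p6.

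**Figure D2:**
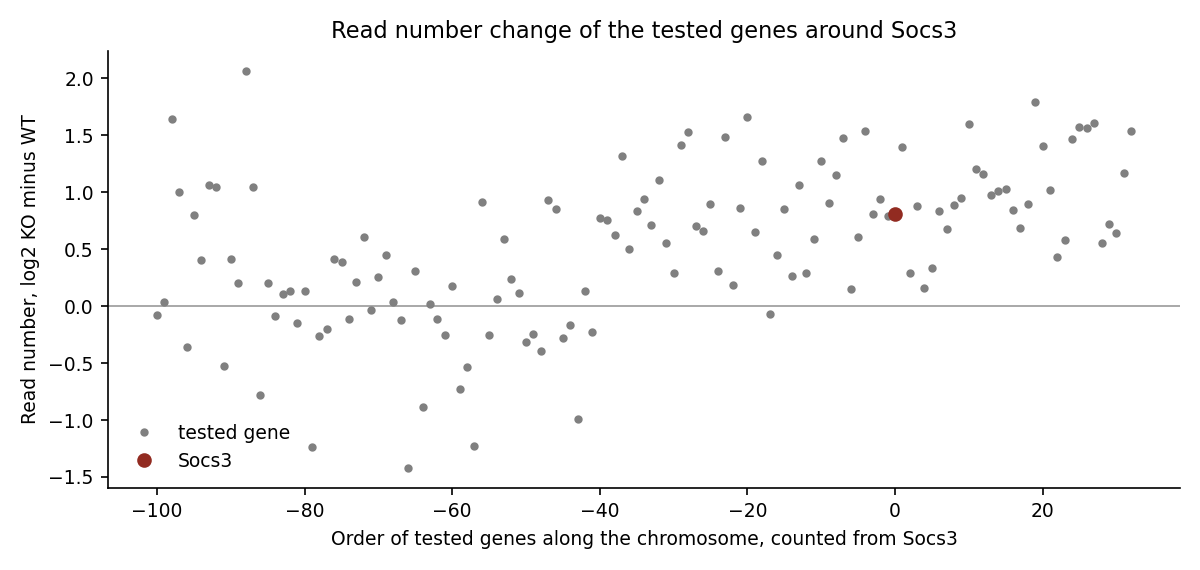
Log2 difference in read number, KO minus WT, of the tested genes on the chromosome of Socs3, in gene order from 100 genes before it to the last tested gene. Every gene within 10 places of Socs3 lies above 0, and Socs3, at 0.81, sits among them.

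Myc and Mycn encode related transcription factors of growth and proliferation. Mycn (ENSMUSG00000037169.15) had 70.6 RPM in WT 1, 27.8 RPM in WT 2, 44.2 RPM in KO 1 and 46.3 RPM in KO 2. Both KO libraries fell between the WT libraries, and the log2 difference was -0.01 with a 95% interval from -0.91 to 0.88 (limma's voom, adjusted p = 0.995). Each WT library decided the sign, since the value was 0.65 without WT 1 and -0.64 without WT 2. Myc was lower, with 5.04, 19.5, 21.4 and 15.4 RPM in WT 1, WT 2, KO 1 and KO 2 on 2, 7, 15 and 7 reads, and its genotypes overlapped. Mycn reads exceeded Myc reads in all 4 libraries.

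The immediate early genes Ier2, Jun, Junb and Egr1 are induced within minutes of growth factor stimulation; Jun and Junb are subunits of the AP-1 factor and Egr1 is a zinc finger activator. Ier2 (ENSMUSG00000053560.4) was the most abundant member, with 151.3 RPM in WT 1, 102.8 RPM in WT 2, 137.0 RPM in KO 1 and 169.9 RPM in KO 2. From 87.9% to 92.7% of the genes detected in a library had fewer reads. The genotypes overlapped, and the log2 difference was 0.27 with a 95% interval from -0.37 to 0.90 (limma's voom, adjusted p = 0.813). Without WT 2 it was -0.0075.

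Egr1 had few reads but an uneven split. There were 2 reads in WT 1 and 1 read in WT 2, against 15 in KO 1 and 9 in KO 2, which is 5.04 and 2.78 RPM against 21.4 and 19.9 RPM. Both KO libraries stood above both WT libraries, as in 20% of the 4815 genes with enough reads for the test. The ratio of KO to WT over summed reads was 5.24, with an exact 95% interval from 1.59 to 27.2 that covers counting error only. Both WT values were under the level of 3 reads, 7.56 RPM in WT 1 and 8.34 RPM in WT 2, so the size of this ratio is uncertain. Egr1 was under the read minimum of the test. In the alternative fit with no such minimum its log2 difference was 2.07 with a standard error of 0.81 and an unadjusted p of 0.0101, and it did not pass (limma's voom, adjusted p = 0.309). The same fit gave 0.81 for Myc, -0.57 for Id2 and -0.12 for Junb, with adjusted p-values of 0.664, 0.900 and 0.949. Jun, at or under 3 reads in both genotypes, is given no fold.

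Junb had 12.6, 11.1, 15.7 and 6.62 RPM in WT 1, WT 2, KO 1 and KO 2, with overlapping genotypes. Jun had 1 read each in WT 2 and KO 1 and 0 reads in WT 1 and KO 2, where 3 reads would be 7.56 and 6.62 RPM. No difference in Jun was detectable at this depth.

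Across the members, 5 of 10 (Id1, Id3, Socs3, Mycn and Ier2) had enough reads for the test of read number and 0 passed it, where 0% of all 4815 genes did. Mov10, the gene knocked out, had the smallest p, with a log2 difference of -5.09, and did not pass either (limma's voom, adjusted p = 0.0553). Not passing this test thus does not show that a level was unchanged. At an unadjusted p under 0.05 there were 1 member, Id1, and 498 of all genes, or 10.3%. The KO libraries lay above the WT libraries in 2 of the 5, Id1 and Socs3, and below in 0, where 20% of all genes tested lay above and 20.5% below. The median log2 difference of the 5 was 0.27, against -0.01 over all genes. When libraries were instead scaled by their total reads, all genes had a median of 0.11 and the 5 members 0.37; on that scale Mycn had 0.08 in place of -0.01.

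The second question was whether tails differed in length. Over the reads of all 10 members the median tail was 115.3 nt in WT 1, 104.7 nt in WT 2, 109.0 nt in KO 1 and 103.5 nt in KO 2, against 97.3, 105.6, 105.8 and 98.1 nt over all reads. Tails of 150 nt or more made up 35.0%, 23.8%, 25.1% and 29.1% of member reads in that order, against 18.8%, 24.0%, 23.7% and 19.6% of all reads. Tails under 30 nt made up 2.26%, 7.14%, 1.98% and 7.69% of member reads in the same order, on 4, 9, 7 and 18 reads. Over all reads these shares were 2.35%, 3.02%, 1.55% and 2.75%. The interquartile range of the member tails was also wider in each library, from 79.9 to 110.0 nt against 71.9 to 79.6 nt. The member pool thus had a higher median and share of long tails than all reads in WT 1, KO 1 and KO 2. In WT 2 it did not, and Ier2, with 270 reads, weighed most in it. By gene rather than by read, the order turned on the read minimum. With 10 or more reads per library, 5 members had a median of 107.1 nt for WT, beside 108.0 nt over 3344 genes. For KO these were 100.9 and 107.1 nt. The 2 members with 20 or more stood higher, at 108.7 beside 105.7 nt for WT and 115.7 beside 105.5 nt for KO.

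**Figure D3:**
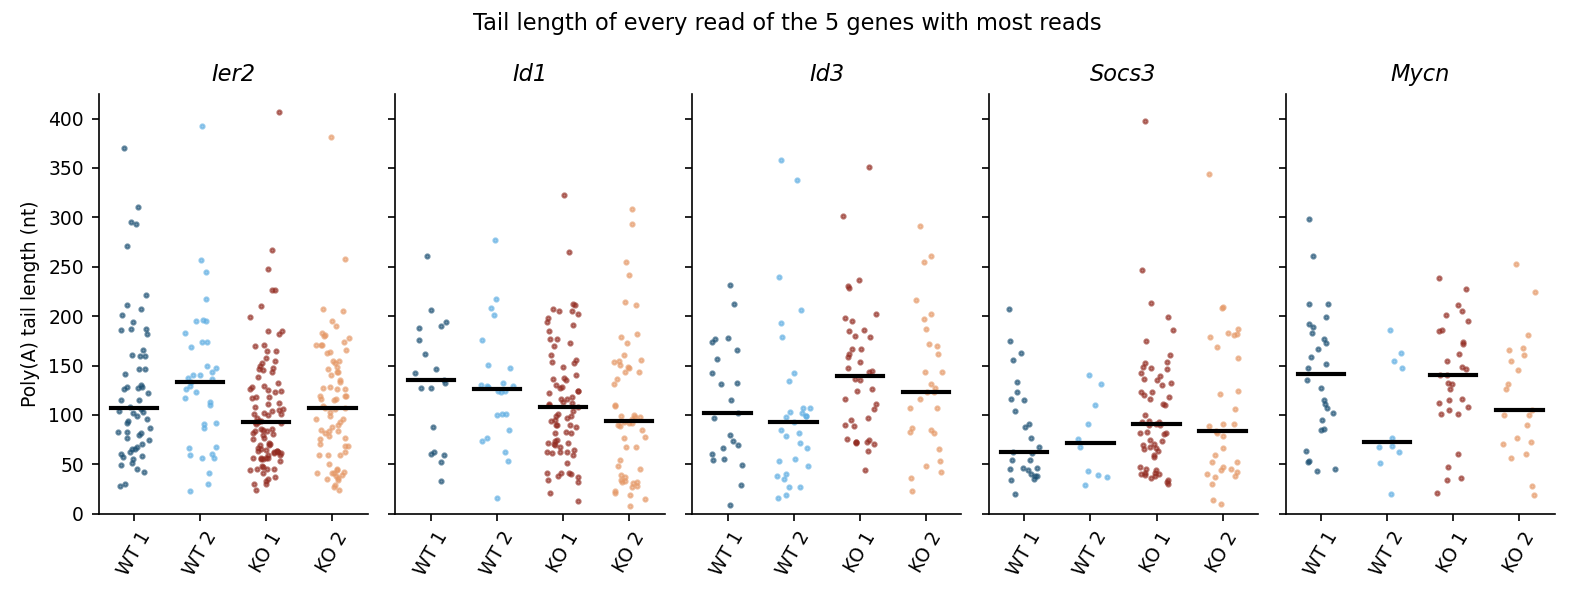
Tail length in nt of every read of the 5 genes with most reads, by library; each dot is 1 read and each black bar the library median. In Id1 both KO bars lie below both WT bars, in Id3 and Socs3 both lie above, and reads range widely in every library. Of 3344 genes that had 10 or more reads per library, 14.3% lay below in this way and 14.7% above.

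The library medians of Id1 and Id3 were ordered in opposite ways between the genotypes, and the difference between these genes was not tested. Id1 had median tails of 135.6 nt in WT 1 and 126.2 nt in WT 2, against 107.7 nt in KO 1 and 94.1 nt in KO 2. Both KO medians were below both WT medians, as in 14.3% of 3344 genes that had 10 or more reads per library. The means were 130.9 nt ± 6.62 (SD, n = 2) and 100.9 nt ± 9.60 (SD, n = 2). Exact 95% intervals of the medians were wide, from 62.0 to 188.5 nt in WT 1, from 100.3 to 147.9 nt in WT 2, from 90.0 to 124.2 nt in KO 1 and from 76.2 to 131.0 nt in KO 2, and they overlapped. Tails under 30 nt numbered 0, 1, 2 and 7 in WT 1, WT 2, KO 1 and KO 2, so KO 2 held most of them.

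Id3 had 102.0 nt in WT 1 and 92.6 nt in WT 2, against 139.8 nt in KO 1 and 123.3 nt in KO 2. Here both KO medians were above both WT medians, as in 14.7% of those 3344 genes. The means were 97.3 nt ± 6.68 (SD, n = 2) and 131.5 nt ± 11.7 (SD, n = 2), a log2 difference of 0.43 with a standard error of 0.23 and a 95% interval from -0.02 to 0.88. With at least 20 reads in each library, Id3 and Ier2 were the members that entered the test, and Id3 did not pass it (limma, adjusted p = 0.9998, unadjusted p = 0.0586; alternatives from 0.809 to 0.9999 adjusted). Id1 missed that minimum by 1 read in WT 1. With at least 10 reads in each library, Id1 had a log2 difference of -0.38 with a standard error of 0.20 and a 95% interval from -0.76 to 0.01 (limma, adjusted p = 0.997).

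Socs3 carried short tails. Its medians were 62.4 nt in WT 1 and 71.6 nt in WT 2, against 91.0 nt in KO 1 and 83.5 nt in KO 2. Both KO medians lay above both WT medians, an order shared by 14.7% of the 3344 genes. Of the 3344 genes that had 10 or more reads per library, only 0.598% had a shorter mean of the WT medians than Socs3, and 7.63% had a shorter mean of the KO medians. The log2 difference was 0.38 with a standard error of 0.22 and a 95% interval from -0.05 to 0.81 (limma, at least 10 reads, adjusted p = 0.997). Exact intervals of the library medians ran from 37.3 to 131.2 nt in WT 2, which had 10 reads, and from 73.2 to 118.3 nt in KO 1.

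Ier2, the best covered member, had medians of 106.8 nt in WT 1, 133.2 nt in WT 2, 92.5 nt in KO 1 and 107.4 nt in KO 2. KO 2 was just above WT 1, so the genotypes overlapped. The log2 difference was -0.26 with a standard error of 0.16 and a 95% interval from -0.58 to 0.06 (limma, adjusted p = 0.9998). It was -0.42 without WT 1 and -0.10 without WT 2, both negative.

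Mycn varied more between replicates than between genotypes, with 141.4 nt in WT 1, 72.8 nt in WT 2, 140.4 nt in KO 1 and 105.4 nt in KO 2. The libraries numbered 1 had the longer medians in both genotypes. Its log2 difference was 0.26 with a 95% interval from -0.23 to 0.76 (limma, at least 10 reads, adjusted p = 0.997), and -0.22 without WT 2. Mycn was also the member whose reads were shared most evenly between transcripts, 50 on ENSMUST00000043396.14 and 40 on ENSMUST00000130990.1, with median tails of 126.2 and 133.8 nt. No transcript of a member carried a second symbol.

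**Figure D4:**
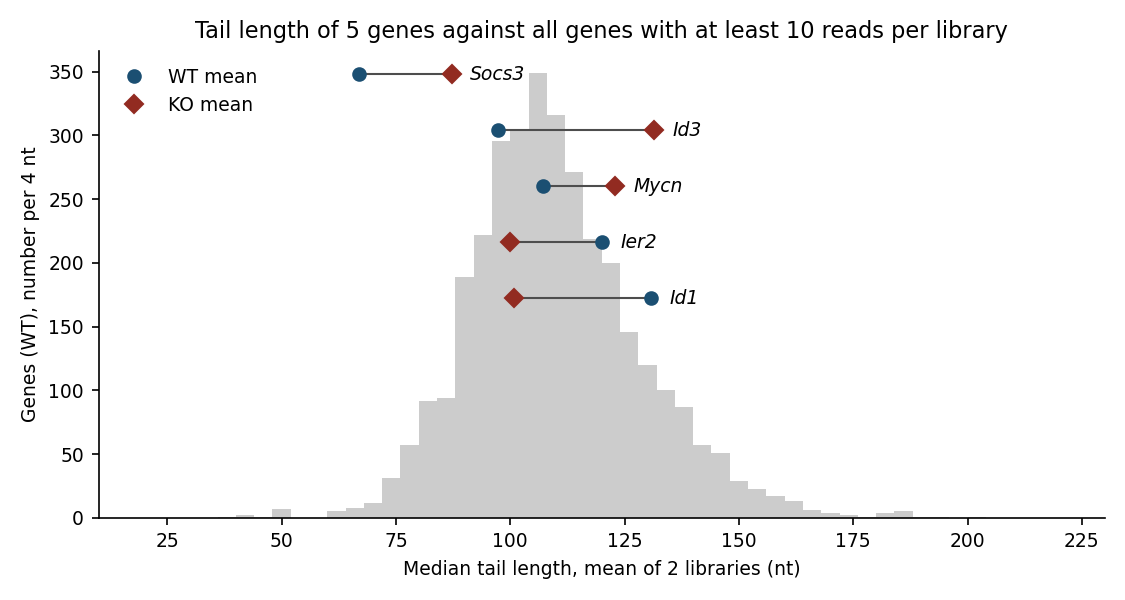
Grey bars count genes by median tail length in WT (mean of 2 libraries, nt) where every library had at least 10 reads; points mark the WT and KO means of 5 members. Socs3 lies at the short edge in WT, at 67.0 nt, and Id1 lies above Id3 in WT and below it in KO, a difference between genes that was not tested.

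Within the same 3344 genes, 86.9% had shorter tails than Id1 in WT and 32.8% in KO, and for Ier2 these shares were 74.2% and 30.5%. They were 24.3% and 90.4% for Id3 and 47.7% and 81.4% for Mycn. None of these 4 genes passed the test of tail length, the libraries of Ier2 and Mycn overlapped between genotypes, and the sign for Mycn turned without WT 2. Over all these genes the WT median was 108.0 nt and the KO median 107.1 nt. Sparse genes scatter more around that median, so these places rest on the 10 to 96 reads per library behind them.

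The other members had tails on too few reads for a comparison. Over all libraries the median was 172.2 nt for Id2 (22 reads), 124.8 nt for Myc (31 reads), 115.2 nt for Junb (23 reads) and 103.7 nt for Egr1 (27 reads). Of the 22 Id2 reads 14, or 63.6%, had tails of 150 nt or more, against 21.7% of all reads in the table; 10 of the 14 came from WT 1. The 2 Jun reads had 33.9 and 219.5 nt.

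In the test of tail length, 0 of the 2 members passed, as did 0% of the 1935 genes tested; 45 of those genes (2.33%) and neither member had an unadjusted p under 0.05. With at least 10 reads, 0 of 5 members and 0.0299% of 3344 genes passed, and at an unadjusted p under 0.05 there were 127 genes (3.8%) and 0 members. Of these 5, the KO medians lay above the WT medians in 2 (Id3 and Socs3), where 14.7% of genes did so, and below in 1 (Id1), where 14.3% did. A permutation of 2 libraries against 2 has 6 arrangements and cannot give a two-sided exact p under 0.333, so no such test of a single value is given.

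**Figure D5:**
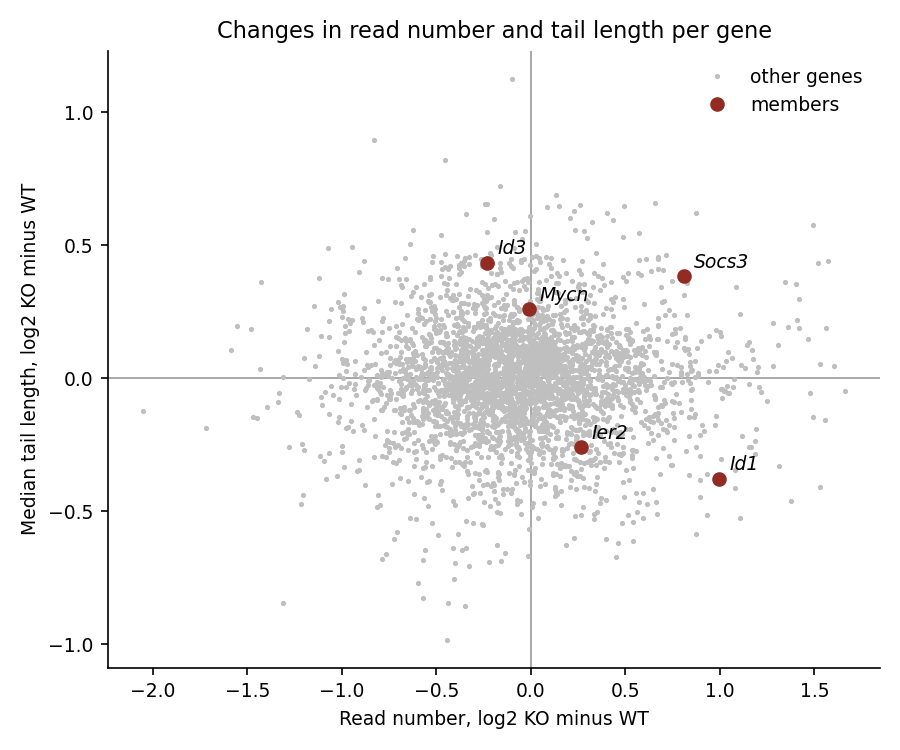
Each grey dot is 1 gene with both measures (at least 10 reads in each library for tails); the axes are log2 differences, KO minus WT, in read number and in median tail length. Socs3 lies at higher values on both axes, Id1 at more reads and shorter tails, and Id3 and Mycn near 0 in reads with longer tails.

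Set side by side, the log2 differences in read number and tail length were 1.00 and -0.38 for Id1, 0.81 and 0.38 for Socs3, 0.27 and -0.26 for Ier2, -0.01 and 0.26 for Mycn, and -0.23 and 0.43 for Id3. More reads went with shorter tails in Id1 and Ier2 and with longer tails in Socs3. None of these differences passed its test.

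All 10 members fell in the class of non-targets of Mov10 in the authors' deposited table, and none in its classes of targets with or without m6A, a methylated adenosine of mRNA. The authors' deposited table put 42.5% of all symbols in the non-target class, and 31.4% of the 4815 genes tested for read number. Mov10 as well is in that class. How the classes were drawn is not given in the sources used here.

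Genes that act around the members were taken from lists of signalling components and partners, with the members left out and older and newer symbols of a gene listed apart. For read number 0 genes of any list passed. Of 20 LIF and STAT3 genes 8 were tested, 7 with more and 1 with fewer reads in KO and a median log2 difference of 0.62. Among these 8, Grb2, at 0.86, lies in the stretch of 73 genes at the end of chromosome 11 that also holds Socs3. Of 22 BMP and SMAD genes 6 were tested, 4 up and 2 down with a median of 0.43. Of 19 genes of the Myc network 8 were tested, all 8 with more reads in KO and a median of 0.88. The 18 tested of 29 ERK pathway genes split 12 up and 6 down with a median of 0.35, and the 9 tested of 26 AP-1 and immediate early genes split 3 up and 6 down with a median of -0.11. Over all 4815 genes the median was -0.01 and 49.4% had more reads in KO. Unadjusted p-values under 0.05 numbered 2, 1, 2, 1 and 1 in these lists, in the order given, and 0 among the 2 tested partners of Id proteins. That was 7 of the 51 genes tested, or 13.7%, beside 10.3% of all 4815 genes.

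Gab1, an adaptor in LIF and growth factor signalling, was the best covered of the LIF list, with 60.5, 105.6, 191.2 and 189.7 RPM in WT 1, WT 2, KO 1 and KO 2. Its KO libraries were above both WT libraries, as in 20% of the 4815 genes tested, with a log2 difference of 1.25 (limma's voom, adjusted p = 0.151). Tfcp2l1, a stem cell transcription factor downstream of STAT3, overlapped between genotypes and had a log2 difference of 0.51 (limma's voom, adjusted p = 0.673). Of the BMP list, Gdf3, a ligand of the same family, had -0.13 and the phosphatase Dusp9 had 0.30, with adjusted p-values of 0.913 and 0.839. Huwe1, a ubiquitin ligase, and Max, the partner through which Myc binds DNA, had 0.15 and 0.01, with 0.917 and 0.997.

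Of the 4 basic helix-loop-helix partners of Id proteins 2 were tested, Tcf15 at 0.67 and Tcf3 at -0.36 (limma's voom, adjusted p = 0.524 and 0.817). Atf4, a stress-induced partner of AP-1 factors, had 519.3, 252.9, 206.9 and 273.6 RPM in WT 1, WT 2, KO 1 and KO 2, with WT 1 apart from the rest and a log2 difference of -0.62 (adjusted p = 0.510). Mcl1, an unstable survival factor mRNA, had -0.13, and Etv5 and Map2k2 of the ERK list had 0.42 and -0.16. For tail length 14 genes of these lists were tested and 0 passed. The tail differences with most reads behind them were 0.13 for Atf4 and -0.03 for Mcl1 on the log2 scale.

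Among the other genes tested for read number, the profiles most like the median profile of the 5 tested members over the 4 libraries were those of Tmed4, Ubap2 and Rbm22, at root mean square distances up to 0.0422 on the log2 scale. The median profile was that of Ier2 itself, and the profiles of the other 4 members differed from it. With 4 libraries such a match is loose, and 396 of 4810 genes came within a distance of 0.2.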

How the data were processed

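Tail length was measured in J1 mouse embryonic stem cells, 2 WT and 2 Mov10 KO libraries. Per the labels' protocols, poly(A) RNA was selected on oligo(dT) beads and made into SQK-RNA002 direct RNA libraries with DeePlexiCon barcodes, run on R9 MinION flow cells; the submitters' processing notes name minimap2 2.20. The basecaller, tail estimator, build, annotation and read filters are not given in the sources used here. Per the file header, the deposited table holds 1 row per read with its transcript, symbol, library and estimated tail length in nt, with no normalization recorded, and yes-or-no classes of Mov10 targets. Selection on oligo(dT) can lose short tails.

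Of 1903922 rows, 3 with a length of 0 were left out. Libraries were assigned by sample title. Reads were reduced to 1 value per gene and library. Log2 median tail length was tested with limma 3.58.1 (trend on log2 mean reads) in R 4.3.3, where a gene had no library under 20 reads. Reads per gene were tallied here and tested with limma's voom, adding 0.5 reads and scaling by median of ratios, where the mean reached 10 reads. P-values were adjusted by Benjamini-Hochberg over all genes tested, with a threshold of 0.05. Intervals of read numbers are exact Poisson, those of medians exact from order statistics, at 95%; they cover read sampling only. Both tests were tried on simulated data, with the spread set alike for all genes. The tail length test recovered 87% of the genes changed by 0.5 on the log2 scale. Sparse genes were given no extra spread there, so this share need not hold for the members. Their standard errors in the tail length test of the real data were 0.16 for Ier2 and 0.23 for Id3. The read number test recovered 17.5% of those changed by 1 and 71.5% of those changed by 2. A read number change of log2 1 was thus mostly missed in the simulation. Alternatives changed the summary, the read minimum, centring, depth, weights, scaling, the model, the replicate block, or left out each library.

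The members, lists and tests were chosen with earlier results of these data known. Named are the 10 members, Mov10, of each list the genes past the threshold or, with none, the 2 with most reads, and the 3 genes with the nearest read profile. Other steps used Python 3.11.15 with pandas 2.3.3, numpy 2.4.6, scipy 1.17.1 and matplotlib 3.10.9.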

Additional observations from a re-analysis of the deposited data

How the results depend on the processing

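Of 101 values of single members under other settings, 90 kept their direction and side of the threshold or shifted by under 1 SD between replicates. The cause of the other changes was not tested unless the setting itself shows it. Some of the 90 could not change, since the read minimum of 10 and the block leave a member's tail length difference as it was. A kept value could still move in size, as Socs3 read number did from 0.81 to 0.20 without WT 2. The number of genes called for tail length was 1 with at least 10 reads in each library and 0 to 2 with a library left out, 2 without WT 2. For read number it was 96 with no filter on low read numbers, 7 with scaling by total reads, and 0 to 451 with a library left out, 93 without WT 1 and 451 without WT 2. The replicate number as a block gave 66 calls for read number and 0 for tail length and called no member. Same-numbered libraries did not deviate together (correlations over genes of 0.0135 for tail length and 0.0155 for read number). These correlations cannot show whether same-numbered libraries were prepared or run together.

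The median log2 tail length change of the tested members was 0.09 (2 members); it was 0.030 with arithmetic means, 0.26 with at least 10 reads (5 members), -0.15 with reads drawn down to the shallowest library (Ier2 alone), and -0.33 to 0.13 with a library left out, where 2 to 4 members were tested. With at least 50 reads no member remained. Their median WT tail was 2.93 nt above that of all tested genes, 1.10 nt above with geometric means, and -0.876 nt relative to it with at least 10 reads. The median log2 read number change was 0.13 with no filter (10 members), 0.37 with scaling by total reads, and 0.041 to 0.65 with a library left out.

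Signs turned for Mycn read number, to 0.012 with limma's trend, 0.081 with scaling by total reads and 0.0012 with trimmed mean of M values scaling; with a library left out it ranged from -0.64 to 0.65, and its tail length change from -0.22 to 0.74. Leaving out a library gave -0.53 to 0.041 for Id3 and -0.0075 to 0.53 for Ier2 read number. Where an arm kept 1 library, it was assumed to vary like the other genotype. Depth limits Jun, Junb, Egr1, Myc and Id2, which had 2 to 31 reads each.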
